A study of Mus musculus with 2 samples.

Results

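The genes described here are 45 mitotic (G2/M) genes of the mouse. They are the G2/M genes other than the chromosomal passenger complex, to which Survivin belongs, and other than the kinesins. All 45 were found by symbol among the 32286 features of both count matrices, and each had at least 50 unique molecular identifiers (UMIs) over both libraries together. From textbook roles, 21 were placed early (chromatin, chromosome condensation, entry into mitosis, outer kinetochore) and 24 late (B-type cyclins, mitotic kinases and checkpoint, spindle, anaphase, cytokinesis). A set of 9 members, Hmgb2, Anp32e, Cbx5, Ctcf, Lbr, Rangap1, Ckap5, Tubb4b and Cks1b, also serve cells outside mitosis and are marked as broad.

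Droplet single-cell RNA-seq (10x 3' end counting) had been run on 2 libraries of skin epidermis, 1 for each genotype. Control mice were Involucrin-CREER/Rosa-SmoM2. The mice of the GOF library were Involucrin-CREER/Rosa-SmoM2/Krt14rtTA/Survivin GOF, where GOF stands for gain of function. Both genotypes thus carried SmoM2, a constitutively active Smoothened that switches on hedgehog signalling, under a recombinase driven by the involucrin promoter, and Krt14rtTA drives its target in basal keratinocytes. Cells were sorted as α6High/CD34-/YFP+, and the design text describes the GOF cells as sorted for SmoM2-YFP together with a Survivin-mCherry reporter, so the gate differed between the genotypes. The labels give no number, sex or age of mice and no time after induction. No test of the genotype is possible with 1 library of each, and every interval below covers counting error only.

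As background, cells that leave S phase build up cyclin-dependent kinase 1 with cyclins A and B, condense their chromosomes and assemble a spindle. The anaphase-promoting complex with Cdc20 then destroys cyclin B and releases the sister chromatids. Transcription of these genes peaks in G2 and mitosis and is held down at other times, largely through promoters that carry CCAAT boxes, bound by NF-Y, and a cell cycle homology region (CHR), bound by complexes that contain MuvB with B-Myb and FoxM1 or with repressive partners. In the epidermis, cycling cells lie mainly in the basal layer.

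RefSeq promoter windows of build GRCm38.p6, from 250 bases before to 50 after the start, were present for 39 of the 45 members. No window is given for Tpx2, Smc4, Cdc25c, Dlgap5, Cdca2 and Ccna2. The letters CCAAT on either strand were in 31 of the 39 windows (79.5%), against 37.9% of 27025 windows of all genes. At least 2 copies were in 69.2% of member windows and 12.2% of all windows. The CHR letters, TTTGAA or TTCGAA on either strand, were in 29 member windows (74.4%) and in 19.4% of all windows. Late members held CCAAT in 19 of 21 windows and CHR letters in 16, and early members in 12 of 18 and 13 of 18. For the S phase genes used for comparison below the shares were 70.0% for CCAAT and 16.7% for CHR letters (30 windows). Other mitotic genes that are not members, also used below, held CCAAT in 68.3% of 41 windows and CHR letters in 70.7%. At least 2 copies of CCAAT were in 26.8% of their windows. These are letter matches, not measured binding. The following stretches before the start are shown because these members frame the results. Ube2c and Cdc20 differed most between the libraries over all cells, and Ccnb2 and Cdk1 form the mitotic kinase. Cenpf stood farthest to the mitotic side of the cycle in the control library, and Cbx5 and Ctcf stood least to that side in both libraries. Bub1 had the highest ratio of GOF to control in cycling cells. Each stretch is written 5′ to 3′ on the gene's strand in GRCm38.p6, with CCAAT and CHR matches of either strand in capitals. Some reach up to 30 bases into the gene as GENCODE draws it.
Ube2c, chr2:164769729-164769927, plus strand: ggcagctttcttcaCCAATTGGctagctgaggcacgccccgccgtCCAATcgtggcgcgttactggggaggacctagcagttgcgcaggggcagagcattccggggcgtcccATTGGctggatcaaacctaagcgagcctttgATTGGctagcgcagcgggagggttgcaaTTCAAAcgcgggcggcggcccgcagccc
Cdc20, chr4:118437344-118437543, minus strand: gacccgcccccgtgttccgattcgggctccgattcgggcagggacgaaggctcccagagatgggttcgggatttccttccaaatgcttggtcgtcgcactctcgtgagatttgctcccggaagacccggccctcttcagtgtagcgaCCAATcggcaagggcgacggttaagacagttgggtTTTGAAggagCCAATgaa
Ccnb2, chr9:70421555-70421754, minus strand: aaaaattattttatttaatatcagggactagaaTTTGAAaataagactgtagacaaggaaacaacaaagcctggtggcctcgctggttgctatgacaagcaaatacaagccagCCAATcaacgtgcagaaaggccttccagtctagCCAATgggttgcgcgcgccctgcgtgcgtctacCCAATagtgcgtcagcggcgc
Cdk1, chr10:69352913-69353112, minus strand: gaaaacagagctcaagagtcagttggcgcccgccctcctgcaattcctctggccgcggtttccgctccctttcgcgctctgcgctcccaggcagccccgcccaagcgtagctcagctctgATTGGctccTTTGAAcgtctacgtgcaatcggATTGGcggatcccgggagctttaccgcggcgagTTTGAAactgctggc
Cenpf, chr1:189688087-189688286, minus strand: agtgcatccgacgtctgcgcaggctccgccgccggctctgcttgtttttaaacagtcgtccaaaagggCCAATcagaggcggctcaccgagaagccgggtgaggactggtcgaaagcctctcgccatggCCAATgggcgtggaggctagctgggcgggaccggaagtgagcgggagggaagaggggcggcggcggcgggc
Bub1, chr2:127831860-127832059, minus strand: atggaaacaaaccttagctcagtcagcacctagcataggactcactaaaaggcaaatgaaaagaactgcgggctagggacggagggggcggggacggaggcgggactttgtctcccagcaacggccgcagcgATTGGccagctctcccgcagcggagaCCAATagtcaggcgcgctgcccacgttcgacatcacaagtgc
Cbx5, chr15:103239853-103240052, minus strand: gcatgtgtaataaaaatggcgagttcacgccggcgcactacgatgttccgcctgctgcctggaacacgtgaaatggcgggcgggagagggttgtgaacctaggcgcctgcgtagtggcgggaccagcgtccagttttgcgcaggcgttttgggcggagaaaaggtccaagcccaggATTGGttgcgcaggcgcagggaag
Ctcf, chr8:105636338-105636537, plus strand: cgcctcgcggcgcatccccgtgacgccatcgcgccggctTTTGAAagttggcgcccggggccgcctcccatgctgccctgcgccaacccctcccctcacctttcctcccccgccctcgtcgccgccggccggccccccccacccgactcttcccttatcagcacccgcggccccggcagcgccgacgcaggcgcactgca
In Ube2c the first pair of CCAAT matches overlap on opposite strands, and 3 others and 1 CHR match follow. Cdc20 held 2 CCAAT and 1 CHR match, Ccnb2 3 and 1, and Cdk1 2 and 2. Cenpf and Bub1 each held 2 CCAAT and no CHR letters in this stretch, Cbx5 a single CCAAT match, and Ctcf a single CHR match far from its start. In the GENCODE vM21 annotation of the same build, the protein-coding gene Ube2c (ENSMUSG00000001403) lies on chromosome 2 from 164769898 to 164778822 and Cdc20 (ENSMUSG00000006398) on chromosome 4 from 118432901 to 118437352. Bub1 (ENSMUSG00000027379) lies on chromosome 2 from 127801122 to 127831865 and Ctcf (ENSMUSG00000005698) on chromosome 8 from 105636568 to 105682922. The 3' counts do not tell transcript isoforms or exons apart, and Hmgb2, Cks1b, Cbx5 and Tubb4b have close relatives or pseudogene copies, so their counts are less certain.

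Cells with at least 1500 genes and at most 10% mitochondrial UMIs numbered 10993 in the control library (median 7717 UMIs) and 6922 in the GOF library (median 12651.5 UMIs). Among the kept cells 22 barcodes occurred in both libraries. Birc5, which encodes Survivin, stood at 56.0 CPM (UMIs scaled by the library total) in control cells and at 775 CPM in GOF cells, as the labels say. The libraries also differed in the sex of their cells, with Xist at 3.12 and 558 CPM. Male-called cells, with UMIs of Y-linked genes and none of Xist, made up 73.1% of control and 27.5% of GOF cells (8036 and 1905 cells). Female-called cells, with Xist and no Y-linked UMIs, made up 0.291% and 56.4%, so the GOF library held cells called as either sex. The keratinocyte markers Krt14, Krt5, Krt15, Trp63 and Krt10 summed to 25961 and 27808 CPM. Melanocyte markers summed to 208 and 257 CPM, immune markers to 137 and 169 CPM (Trdc at 0 in the control, Cd3e at 0 in the GOF library), fibroblast markers to 509 and 656 CPM, nearly all Dcn, and endothelial markers to 0.770 and 0.556 CPM. The gate and the mice cannot be told apart from the genotype, and values in male-called cells or without cells marked by melanocyte or immune genes stand beside the results they move.

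Over all kept cells most members were lower in the GOF library. The log2 ratio of GOF to control CPM was below 0 for 38 of the 45, with a median of -0.23, while the median of all 14912 measured genes was 0.08. At least 1.5-fold lower were 4 members, Ube2c, Cdc20, Ccnb1 and Cenpa, where 5.06% of all measured genes were. No member was 1.5-fold higher, where 7.35% of all genes were. All 4 are late members. Late members had a median of -0.41 (22 of 24 below 0), and early members had a median of -0.11 (16 of 21 below 0). Cenpa was the nearest member inside the bound, 1.59-fold lower, and Ccnb2 the nearest outside it, at 1.49-fold lower. Among male-called cells (UMIs of Y-linked genes, none of Xist) 12 members were 1.5-fold lower and the median was -0.40. The count was 8 with median-of-ratios scaling, 9 after thinning to 3000 UMIs and 15 with a mean of per-cell CPM. The share of all genes at these settings is not given, so the counts are not read as particular to the members.

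**Figure D1:**
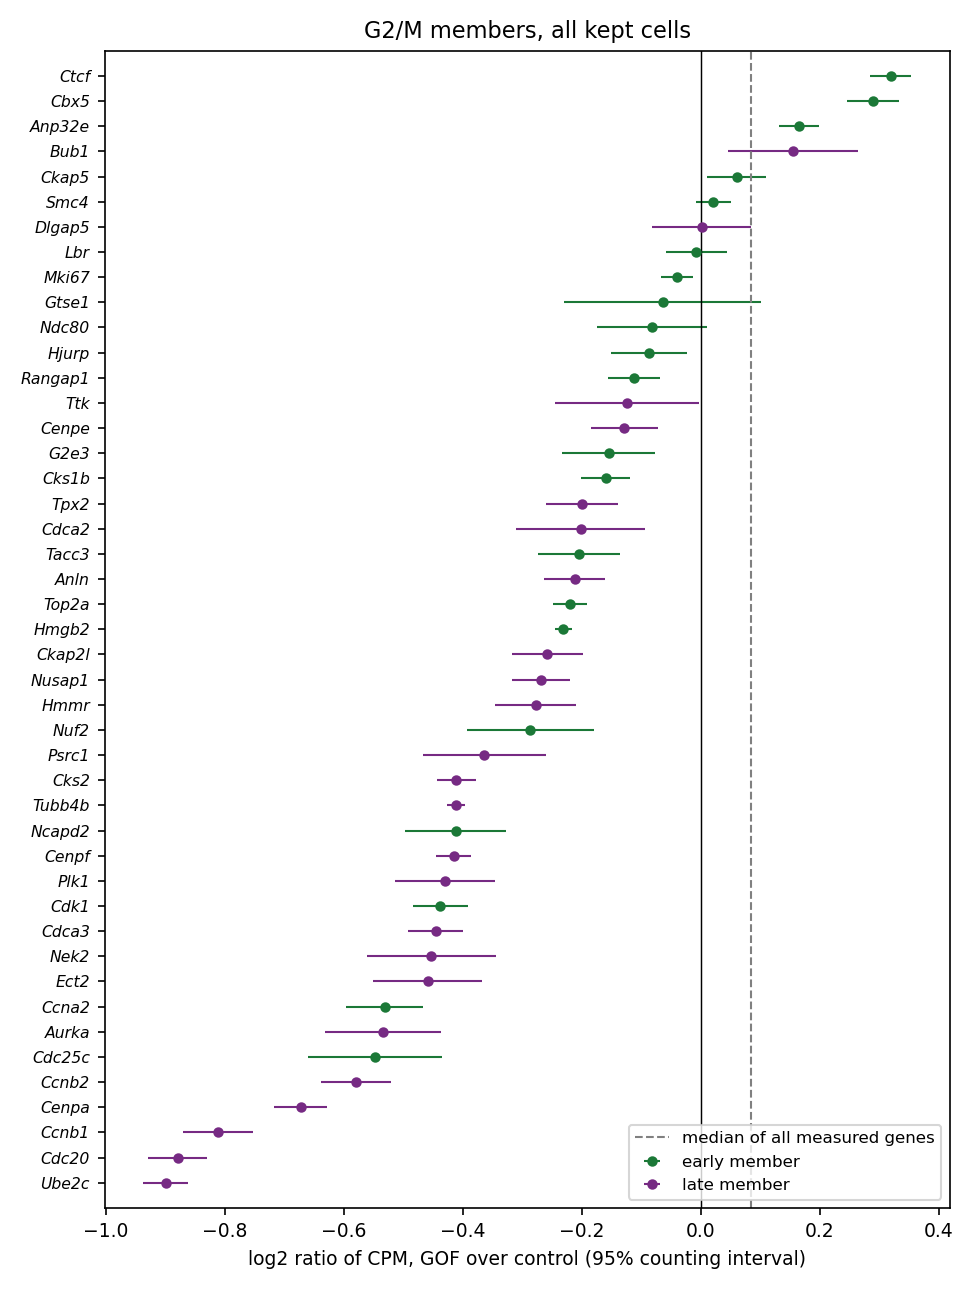
Log2 ratio of CPM, GOF over control library, for each of the 45 members over all kept cells, with 1 library per genotype. Points are ratios of summed UMIs, lines 95% counting intervals, colours early and late members, and the dashed line the median of all measured genes at 0.08. Ube2c, Cdc20, Ccnb1 and Cenpa lie farthest to the left, and Ctcf and Cbx5 farthest to the right.

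The members that act when cyclin B is destroyed stood at the lower end. Ube2c, the ubiquitin-conjugating enzyme of the anaphase-promoting complex, was at 142 CPM (control) and 76.3 CPM (GOF) (log2 ratio -0.90, 95% interval -0.94 to -0.86). Cdc20, the activator of that complex, was at 84.9 and 46.2 CPM (-0.88, -0.93 to -0.83). Ccnb1, the cyclin that it targets, was at 56.3 and 32.1 CPM (-0.81, -0.87 to -0.75). These 3 members had the lowest ratios of all 45, and their intervals lie far from 0.

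Every one of the 10 cyclin, kinase-partner and entry genes was below 0 in all cells, with a median of -0.44, but Ccnb1 alone was past 1.5-fold. Ccnb2, the second B-type cyclin, was at 52.3 and 35.0 CPM (-0.58), and Ccna2, cyclin A of S and G2 phase, was at 42.4 and 29.4 CPM (-0.53). Cdk1, their kinase partner, was at 80.2 and 59.2 CPM (-0.44), and Cdc25c, the phosphatase that activates it, was at 14.0 and 9.59 CPM (-0.55). The small kinase-binding proteins Cks2 (155 and 117 CPM) and Cks1b (90.7 and 81.2 CPM) had ratios of -0.41 and -0.16. Cdca3, a trigger of mitotic entry, was at 79.0 and 58.0 CPM (-0.45). G2e3, a ubiquitin ligase of G2/M phase, was at 25.4 and 22.8 CPM (-0.15). Gtse1 had the fewest UMIs of all members, 603 and 599, and its interval of -0.23 to 0.10 includes 0.

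Among the mitotic kinases 4 of 5 were below 0. Plk1, which acts at centrosomes and kinetochores, was at 24.3 and 18.1 CPM (-0.43), Aurka, the centrosomal Aurora kinase, at 18.5 and 12.8 CPM (-0.53), and Nek2, which separates centrosomes, at 14.9 and 10.9 CPM (-0.45). Ttk, the checkpoint kinase also called Mps1, differed less, at 10.5 and 9.59 CPM (-0.12). Bub1, the checkpoint kinase that marks centromeres, was the exception at 11.6 and 12.9 CPM (0.16, interval 0.05 to 0.27). That interval includes 0.08, the median of all measured genes.

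At the kinetochore and centromere all 6 members were below 0, with a median of -0.21. Cenpa, the centromeric histone, was at 94.1 and 59.1 CPM (-0.67, -0.72 to -0.63), and Cenpf, a large protein of the outer kinetochore, at 192 and 144 CPM (-0.41). Hjurp, the chaperone that loads Cenpa, was near even at 37.2 and 35.0 CPM (-0.09). The microtubule-binding Ndc80 (-0.08) and Cenpe (-0.13) were also near even, and Nuf2, the partner of Ndc80, was at -0.29. Over all cells the difference between the libraries was thus larger for the histone than for its loader. In cycling cells, as defined below, lay 83.8% (control) and 92.9% (GOF) of the UMIs of Cenpa but 53.7% and 51.7% of those of Hjurp.

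Of the spindle members 7 of 9 were below 0, with a median of -0.26. Tubb4b, a β-tubulin, was at 669 and 503 CPM (-0.41), and Nusap1, which bundles spindle microtubules, at 67.3 and 55.9 CPM (-0.27). Tpx2, an activator of Aurka, was at 42.8 and 37.2 CPM (-0.20), and Dlgap5, a stabilizer of kinetochore fibres, was at 21.03 and 21.05 CPM. Ckap5, a microtubule polymerase, was at 57.9 and 60.4 CPM (0.06), and Tacc3, which recruits it to the spindle, at 33.0 and 28.7 CPM (-0.20). The microtubule-binding Hmmr (34.2 and 28.2 CPM, -0.28), Ckap2l (43.9 and 36.7 CPM, -0.26) and Psrc1 (15.7 and 12.2 CPM, -0.36) lay between these values. Of the cytokinesis genes, Ect2, the activator of RhoA, was at 20.7 and 15.0 CPM (-0.46), and Anln, anillin of the contractile ring, at 59.6 and 51.5 CPM (-0.21).

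The chromosome and chromatin members ran from -0.41 (Ncapd2) to 0.32 (Ctcf), and the highest, Ctcf, Cbx5 and Anp32e, are broad members. Top2a, the topoisomerase that untangles sister chromatids, was at 193 and 166 CPM (-0.22), Mki67, the coat of mitotic chromosomes, at 196 and 190 CPM (-0.04) and the condensin subunit Smc4 at 168 and 170 CPM (0.02). The other condensin subunit, Ncapd2, was lower at 23.6 and 17.7 CPM (-0.41), and Cdca2, which targets a phosphatase to chromosomes at mitotic exit, was at 13.4 and 11.6 CPM (-0.20). Of the 6 chromatin and envelope members, Ctcf, the insulator-binding factor, was at 109 and 136 CPM (0.32, interval 0.29 to 0.35), and Cbx5, heterochromatin protein HP1α, at 68.6 and 83.8 CPM (0.29, 0.25 to 0.33). Anp32e, a chaperone of the histone variant H2A.Z, was at 122 and 136 CPM (0.17), and Hmgb2, a DNA-bending protein, at 703 and 599.5 CPM (-0.23). Lbr, the lamin B receptor (56.0 and 55.7 CPM), and Rangap1, which activates the GTPase Ran (78.2 and 72.3 CPM), were at -0.01 and -0.11.

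The summed level of these genes in a library takes in how many cells cycle, where in the cycle they are and the level in each cell. The part of each in the difference between the libraries was not tested. A cell was called cycling when Mki67, Top2a and Cenpf together had at least 5 UMIs, and those 3 members are a description in that split. Of 45 members, 44 were at least 2-fold higher in cycling cells than in the others in each library, where 3.99% of all genes were in control cells and 4.58% in GOF cells. The median log2 ratio of cycling to other cells was 3.11 in control cells and 4.36 in GOF cells. Cycling cells had median depths of 11410 and 20121 UMIs and the others 7064 and 11342 UMIs. With 2 UMIs required after each cell was thinned to 3000 UMIs, the medians were 2.94 and 3.87. Cenpf, one of the 3 genes, had 92.4% of its UMIs in cycling cells of the control and 97.5% in the GOF library. Ctcf was the exception, with ratios of 0.76 and 0.66 and 46.3% and 41.4% of its UMIs in cycling cells.

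At equal depth fewer GOF cells were called cycling. With every cell at 3000 UMIs and at least 2 UMIs of the 3 genes, 23.5% of control cells (95% interval 22.7 to 24.3) and 16.5% of GOF cells (15.6 to 17.4) were cycling. Without thinning the shares were 23.5% and 20.4%. In differentiated cells, defined as those with at least 3% of UMIs from Krt1, Krt10, Krtdap and Sbsn, the same call at equal depth gave 4.27% and 1.41%. A cycling control cell had a median of 14 members detected at 3000 UMIs and a cycling GOF cell 15, while other cells had 4 and 3.

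Inside cycling cells no more than a few members were past 1.5-fold between the libraries. By the full-depth call the median ratio was -0.03, with 27 of 45 below 0, and Ube2c alone was 1.5-fold lower (357 and 236 CPM, -0.60), where 4.86% of all genes were. Without cells marked by melanocyte or immune genes the median was -0.24 and 3 members were 1.5-fold lower. When marked cells were instead those with 5 marker UMIs after thinning to 3000, the median without them was -0.015, Ube2c was at -0.58 and no member was 1.5-fold lower. For neither way of marking is the share of all genes given. In cycling cells called at equal depth, whose levels come from all their UMIs (median depths of 9221 and 17959.5 UMIs), the median was 0.09, with 31 of 45 above 0, and no member was 1.5-fold lower or higher, where 4.79% and 5.97% of all genes were. The late end still stood lowest there, with Cdc20 at 227 and 174 CPM (-0.38), Ube2c at 404 and 314 CPM (-0.36), Ccnb1 at 158 and 127 CPM (-0.32) and Cenpa at 260 and 227 CPM (-0.20). Bub1 stood highest at 33.3 and 49.2 CPM (0.57). The early median was 0.15 and the late median 0.04. The median of 0.09 over all members is not read as higher in the GOF library. Median-of-ratios scaling shifts all genes by 0.089 in cycling cells called at full depth.

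In cells not called cycling the members were much lower in the GOF library. Mki67, Top2a and Cenpf define this class and count among the 45 as a description only. At full depth the bound of under 5 UMIs lay on cells with median depths of 7064 and 11342 UMIs. The same bound thus allowed a lower CPM of these genes in the deeper GOF cells. Its part in the difference was not tested. At full depth 31 of 45 were 1.5-fold lower (median -1.01), where 5.43% of all genes were, and with the call made at equal depth 20 were (median -0.55), where 5.12% of all genes were. Those 20 were 15 late and 5 early members. By the latter call Ube2c was at 44.9 and 10.7 CPM (-2.07), and Ccnb1 was at 18.2 and 5.94 CPM (-1.62). Cdc20 was at 32.1 and 10.8 CPM (-1.57), Plk1 at 7.53 and 2.95 CPM (-1.35) and Ccnb2 at 18.1 and 7.17 CPM (-1.34). All 24 late members were below 0. Ctcf (90.0 and 119 CPM, 0.40) and Cbx5 (49.0 and 64.4 CPM, 0.40) were higher.

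The levels of the members outside cycling cells can be set beside those in barcodes that hold little RNA. Barcodes with under 1000 UMIs, 908 in control cells and 426 in GOF cells, held 3295 and 3039 CPM summed over the 45 members, more than the 1746 and 1349 CPM of cells not called cycling and less than the 8738 and 8101 CPM of cycling cells. For Ube2c these barcodes held 87.8 and 70.9 CPM, and for Ccnb1 49.4 and 16.9 CPM. At 3000 UMIs, Ube2c was detected in 10.0% of control and 2.13% of GOF cells not called cycling, against 6.65% and 2.82% of differentiated cells. For Cdc20 the shares were 7.86% and 2.34%, against 5.02% and 1.41% in differentiated cells. For both genes the control share was above the share in differentiated cells. In the GOF library few differentiated cells held a UMI of either gene, so the order of the GOF shares is not read. The differentiated cells, 797 and 568, also include cycling ones (4.27% and 1.41%). The part of free RNA in the difference was not tested.

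Over all cells at 3000 UMIs, Ube2c had a UMI in 19.8% of control and 9.16% of GOF cells, where the unthinned shares were 33.7% and 18.7%. Cdc20 was detected in 15.9% and 7.68%, Cenpa in 16.1% and 9.32%, and Ccnb1 in 11.7% and 5.96%. For these late genes the GOF share was clearly below the control share. Bub1 was detected in 2.99% and 3.04% of cells and Ctcf in 27.1% and 31.7%. In differentiated GOF cells Bub1 was detected in 0 of 568, which allows a share of cells with a UMI of up to 0.647% (exact upper bound) and sets no limit on cells that express it below this depth.

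To place the cycling cells along the cycle, each was set on the S side or the M side by whether the UMIs of 12 S phase reference genes or of 12 mitotic reference genes were more numerous. None of the reference genes is a member. The reference genes themselves differed, at 545 and 632 CPM for the S list and 725 and 564 CPM for the M list over all cells, so that the split is not neutral to the genotype, and 28.8% of control and 20.2% of GOF cycling cells lay within 1 UMI of it. At 3000 UMIs, S-side cells made up 6.38% of all control cells (5.92 to 6.85) and 7.09% of all GOF cells (6.496 to 7.721). M-side cells made up 14.6% (14.0 to 15.3) and 8.15% (7.51 to 8.82). The S-side shares overlap in their intervals and the M-side shares do not. Both rest on the cycling call. Without it, 8.62% of control and 11.9% of GOF cells had at least 5 UMIs of the S reference genes. At least 3 were in 20.7% and 22.6%, and at least 2 in 35.5% and 34.2%. For the M reference genes at least 5 UMIs were in 12.0% and 7.89%. Of cycling cells, 27.2% were S-side in control cells and 43.1% in GOF cells.

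**Figure D2:**
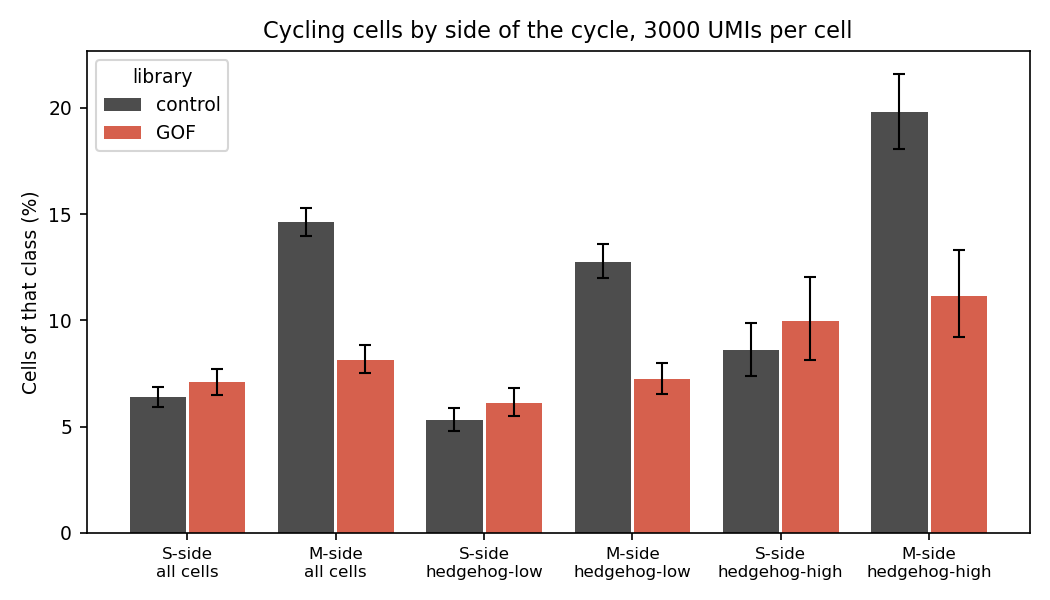
Percent of cells on the S side and on the M side of the cycle at 3000 UMIs per cell, for each library, in all kept cells and in hedgehog-high and hedgehog-low cells. Error bars are 95% Clopper-Pearson intervals. The GOF share is above the control share on the S side and below it on the M side in all cells, at 7.09% against 6.38% and 8.15% against 14.6%.

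The members took similar positions along the cycle in both libraries. The ratio of M-side to S-side CPM, with sides called at equal depth, had a median of 1.09 in control cells and 1.19 in GOF cells, and the values of the 45 genes correlated between the libraries with r = 0.95 (across genes, which are not independent replicates). At least 2-fold higher on the M side were 24 members in control cells and 26 in GOF cells, where 1.21% and 1.12% of all genes were. Late members led, with 20 and 21 of 24 against 4 and 5 of 21 early ones. In the control library Cenpf stood farthest to the M side, at 1.91 and 2.34, and other late members near it were Cdc20 (1.81 and 2.34), Ccnb1 (1.81 and 2.01) and Cenpa (1.76 and 2.17). Cbx5 was even across the sides, at 0.06 and -0.19. Cdc25c was placed among the early genes by its role and stood late by its values, at 1.83 and 2.10, and Ttk, placed among the late ones, stood early at 0.72 and 0.50.

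Against this position the library difference in cycling cells called at equal depth was lower for later genes, with r = -0.53 and rho = -0.51 over the 45 members, as a description. The points share libraries and depth, and both axes use counts of the same cycling cells. Of these cells, 27.2% were S-side in control and 43.1% in GOF cells. That mix alone lowers the ratio of genes with higher M-side levels, so r cannot tell the mix from a change within a side. With the sides held in the control's shares, the early median was 0.250 and the late median 0.249. This takes out the difference in shares by construction, and the reference genes that drew the sides differed between the libraries. Cdc20 (-0.13), Ube2c (-0.12), Tubb4b (-0.12) and Ccnb1 (-0.09) were still below 0 there, and the rest were above it. Mki67, Top2a and Cenpf, which chose the cycling cells, are among the points. Tubb4b (-0.26 in cycling cells) lies below the rest of its neighbours. With the position from the GOF library r was -0.62.

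**Figure D3:**
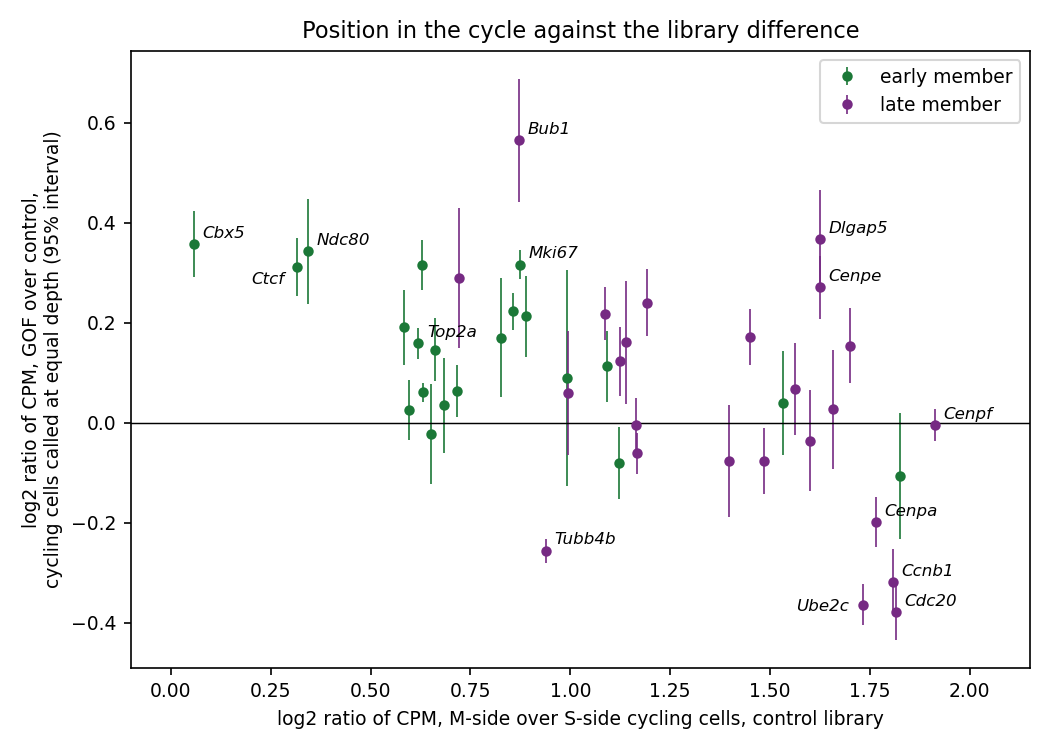
Log2 ratio of CPM, GOF over control, in cycling cells called at equal depth against the log2 ratio of M-side to S-side CPM in the control library, 1 point per member with its 95% counting interval on the vertical axis. Early members lie mostly to the left and above 0, and Ube2c, Cdc20, Ccnb1 and Cenpa lie at the right below 0, between -0.38 and -0.20.

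Within M-side cells called at equal depth the members were mostly higher in the GOF library, by small amounts. Their levels come from all UMIs of these cells, with median depths of 9335 and 17561 UMIs. The median was 0.24, with 41 of 45 above 0. It was 0.15 with median-of-ratios scaling, 0.15 without cells marked by melanocyte or immune genes and 0.28 in thinned counts. Of the members 1 was 1.5-fold higher, where 4.13% of all genes were. None was 1.5-fold lower, where 4.87% of all genes were. The 4 below 0 were Tubb4b (-0.09), Ccnb1 (215 and 205 CPM, -0.07), Cdc20 (307 and 295 CPM, -0.06) and Ube2c (545 and 524 CPM, -0.06). Those that were lowest over all cells were thus near even in cells on the M side. Cenpf was at 841 and 1033 CPM (0.30), Cenpe at 183 and 262 CPM (0.52), Nusap1 at 250 and 331 CPM (0.41), Mki67 at 730 and 988 CPM (0.44) and Bub1 at 39.6 and 61.5 CPM (0.63). Cenpf, Mki67 and Top2a chose the cycling cells, so on either side they count among the 45 as a description only. In these M-side cells the M reference genes summed to 2420 and 2617 CPM and the S reference genes to 702 and 824 CPM. The part of the split in these values was not tested.

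On the S side the median was 0.18, with 33 of 45 above 0. Cdc20 was 1.5-fold lower (87.3 and 58.2 CPM, -0.59), where 4.41% of all genes were, and Ube2c stood next at 164 and 113 CPM (-0.54). Bub1 (21.7 and 36.7 CPM, 0.76) and Dlgap5 (23.43 and 38.02 CPM, 0.70) were 1.5-fold higher, where 6.28% of all genes were. Early and late medians were 0.19 and 0.13. Melanocyte markers summed to 126 and 245 CPM in S-side cells and immune markers to 102 and 230 CPM, against 159 and 160 and 154 and 123 CPM in M-side cells, and the S-side median was 0.096 without cells marked by these genes. It was 0.098 with median-of-ratios scaling and 0.15 in thinned counts.

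**Figure D4:**
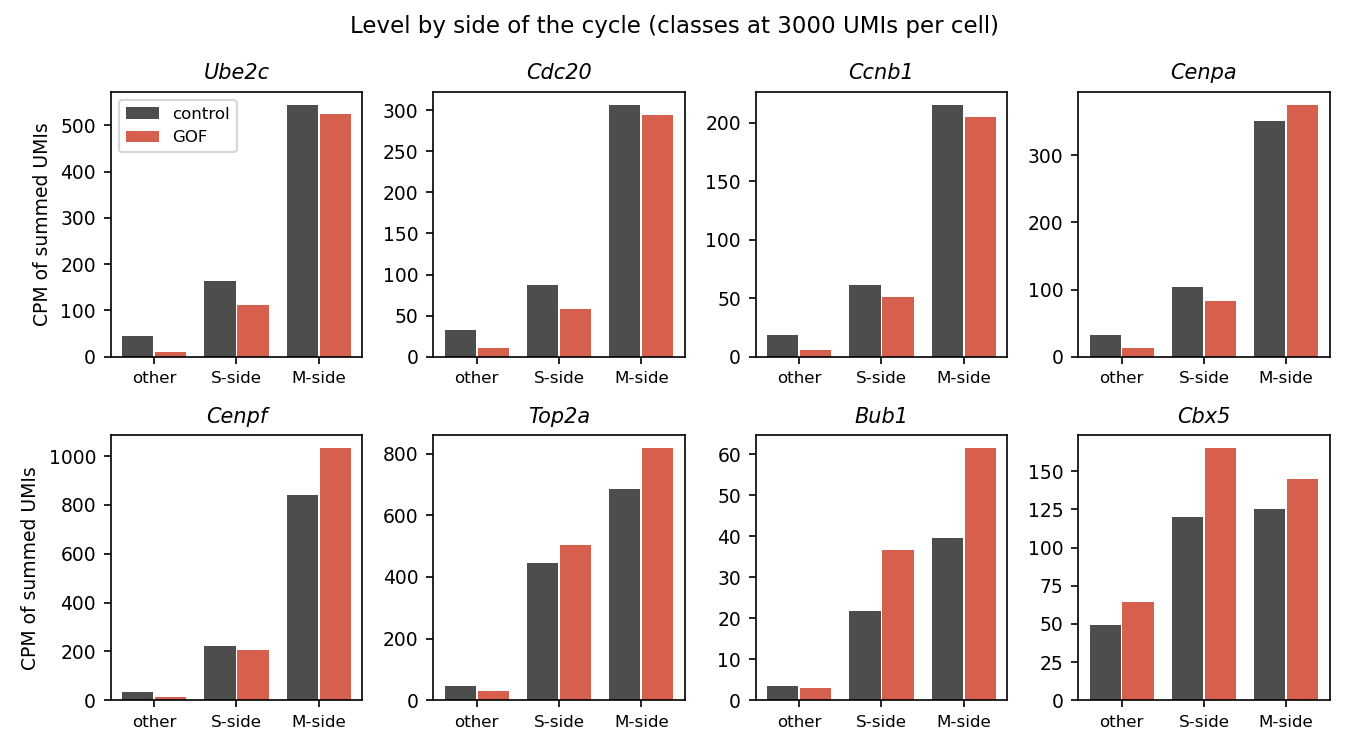
Levels in CPM of 8 members in control and GOF cells, for S-side and M-side cycling cells and the other cells, all called at equal depth, on linear axes that start at 0. Bars are CPM from summed UMIs, 1 library per genotype, with no error bars. In M-side cells Ube2c is at 545 and 524 CPM, while in the other cells it is at 44.9 and 10.7 CPM.

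When S-side, M-side, undecided and other cells were weighted in the shares of the control library, the median over the 45 members in all cells went from -0.23 to 0.09 (0.10 with classes at equal depth). These values lie near 0.08, the unweighted median of all measured genes, and are not read as higher in the GOF library. Weighting cycling and other cells alone gave -0.15 with the call at full depth and -0.0015 with the call at equal depth. By construction these values remove the difference in shares of the classes, and the classes were themselves drawn with 3 members and with the reference genes.

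Hedgehog-high cells had at least 2 UMIs of Ptch1, Gli1 and Hhip together at 3000 UMIs, and hedgehog-low cells had none. None of these genes is a member. They numbered 2015 and 6855 in the control and 953 and 5102 in the GOF library. Cycling was more frequent in hedgehog-high than in hedgehog-low cells of both libraries, at 31.1% (29.1 to 33.1) against 20.1% (19.2 to 21.1) in control cells and 22.1% (19.5 to 24.9) against 14.6% (13.6 to 15.6) in GOF cells. M-side cells made up 19.8% and 11.1% of hedgehog-high cells and 12.8% and 7.23% of hedgehog-low cells, in the order control and GOF. The difference between the libraries in share had the same direction in both classes.

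Most members were below 0 in both hedgehog classes. In hedgehog-high cells the median was -0.37, with 41 of 45 below 0, and 12 members were 1.5-fold lower, where 5.89% of all genes were. The lowest were Ube2c (176 and 98.0 CPM, -0.85), Ccnb1 (73.7 and 41.2 CPM, -0.84), Cenpa (129 and 72.3 CPM, -0.83) and Cdc20 (106 and 61.2 CPM, -0.79). The early members among the 12 were 4, with Cdc25c at 19.4 and 12.3 CPM (-0.65) and Cdk1 at 102 and 66.5 CPM (-0.61). In hedgehog-low cells the median was -0.20, with 38 of 45 below 0, and 4 were 1.5-fold lower, where 5.3% of all genes were. Those were Ube2c (133 and 69.5 CPM, -0.94), Cdc20 (77.6 and 41.8 CPM, -0.89), Ccnb1 (51.3 and 28.7 CPM, -0.84) and Cenpa (83.1 and 54.3 CPM, -0.62). The count in hedgehog-high cells moved with the class: it was 7 with classes made at 5000 UMIs, 20 when 3 UMIs were required and 31 in male-called cells alone. In hedgehog-low cells it was 9 with median-of-ratios scaling and 7 without the top doublet scores. The share of all genes at these settings is not given, so these moves are not read as particular to the members. Median depths were 7858 and 14741 UMIs in hedgehog-high and 7833 and 12297 UMIs in hedgehog-low cells, and the difference between the classes was not tested. In hedgehog-high cells fibroblast markers summed to 1117 and 2259 CPM, differentiation markers to 5170 and 2275 CPM and melanocyte markers to 89.9 and 41.3 CPM. In hedgehog-low cells the same sums were 285 and 212, 12585 and 10552, and 246 and 308 CPM. Their part in these values was not tested.

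In M-side hedgehog-high cells called at equal depth, 399 and 106 cells, the median was 0.0040, with 23 of 45 above 0, and none was 1.5-fold lower or higher, where 5.52% and 4.4% of all genes were. In M-side hedgehog-low cells, 875 and 369 cells, it was 0.26, with 41 above 0, and 2 were 1.5-fold higher, where 4.76% of all genes were. Cenpa was at 419 and 364 CPM (-0.20) in the former and 341 and 389 CPM (0.19) in the latter, and Bub1 at 53.4 and 63.7 CPM (0.25) and 36.3 and 60.9 CPM (0.75). Outside cycling cells 23 members were 1.5-fold lower in hedgehog-high cells, where 6.04% of all genes were, and 20 in hedgehog-low cells, where 5.43% were. There Ube2c was at 37.1 and 9.68 CPM in hedgehog-high and at 43.8 and 11.2 CPM in hedgehog-low cells.

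Related genes that are not members gave a setting for these values. Of 48 other mitotic genes 38 were below 0 in all cells (median -0.20) and 5 were 1.5-fold lower, where 5.06% of all measured genes were. Among the 5 were Parpbp (4.65 and 2.94 CPM), Troap (7.54 and 4.85 CPM), Cdc25b (30.04 and 19.55 CPM) and Sapcd2 (11.9 and 7.87 CPM). The 3 partners of Survivin in the passenger complex, Cdca8 (89.4 and 70.8 CPM), Aurkb (37.1 and 29.5 CPM) and Incenp (45.3 and 37.8 CPM), had a median of -0.33. Of 12 mitotic kinesins 11 were below 0 (median -0.28). In contrast, 41 of 42 S phase genes were above 0 (median 0.24), with Ccne2 at 8.91 and 13.5 CPM, Hells at 37.9 and 54.9 CPM and Mcm4 at 32.3 and 46.1 CPM. The S phase list includes the S reference genes of the split above, and the other mitotic genes and kinesins include 7 and 2 of its M reference genes. Of 19 cell cycle regulators 13 were above 0 (median 0.13). Among them Foxm1 was at 12.9 and 10.8 CPM (-0.26) and Mybl2, which encodes B-Myb, at 6.496 and 7.123 CPM (0.13). The NF-Y and MuvB subunits of the list lay between -0.08 (Lin37) and 0.30 (Nfyb).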

How the data were processed

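The deposited values are whole UMI counts for each gene in each barcode and carry no normalization. Per the file headers, the authors ran Cell Ranger 6.1.1. The submitters' processing notes name R 4.3.0, Seurat 4.2.0 and mm10. The matrices held 24844 control and 11438 GOF barcodes with 146216083 and 126329382 UMIs, the lowest barcode totals were 502 and 500 UMIs, and 84 barcodes occurred in both. The labels state 10000 cells loaded per channel and 8046 cells for the control genotype. They name chip chemistry V2 and a V3 library kit in the same protocol.

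Cells with at least 1500 genes and at most 10% mt- UMIs were kept, 10993 and 6922, with 109148304 and 113294993 UMIs. UMIs were summed per library and class and scaled to CPM. Ratios carry exact conditional binomial 95% intervals and shares Clopper-Pearson intervals. UMIs of 1 library are not independent cells or mice, so these cover counting error only. A gene was measured with at least 50 pooled UMIs and called at 1.5-fold. Classes at equal depth were made after random thinning to 3000 UMIs, which left out shallower cells (10901 and 6911 stayed), and their levels were taken from the full counts. Scrublet marked 0 and 1 doublets at its own threshold, so it did not work, and doublets stayed in. Removing the top scores (699 and 428 cells) is an alternative. Python 3.11.15, numpy 2.4.6, scipy 1.17.1, pandas 2.3.3, scanpy 1.11.5 and matplotlib 3.10.9 were used, and the ratio and thinning steps were tested on simulated data.

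All 45 members were named. Of each other list at most 4 genes with the largest ratios in all cells were named, besides Foxm1, Mybl2 and Lin37, which were chosen after their values were seen. The members and lists were chosen with earlier results of these data known. The hedgehog classes rest on Ptch1, Gli1 and Hhip, a choice made after the data had been seen, and 1 gene of the planned class is not reported here.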

Additional observations from a re-analysis of the deposited data

How the results depend on the processing

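No paired analysis was possible because each genotype has 1 library. Of the alternatives tried for summary values, 107 stayed within the spread, 58 moved and 3 reversed. For Ube2c, Cdc20, Cenpa and Ccnb1, the members run, 26 values stayed, 44 moved and all were below 0. The alternatives that weight sides of the cycle or classes called at equal depth, that take other cells at equal depth, that mark cells at 3000 UMIs, and those for the sides themselves were chosen after seeing the data. Median-of-ratios scaling shifts all genes by 0.072 to 0.089 (log2).

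Over all cells the median of -0.23 became -0.40 in male-called cells, -0.43 with mean per-cell CPM, -0.39 thinned, -0.15 with cycling and other cells in the control's share, -0.0015 with these called at equal depth, and, reversed, 0.092 with S-side and M-side shares held and 0.10 at equal depth. Reversed here means the sign only, since the unweighted median of all measured genes was 0.08. The 4 members 1.5-fold lower became 8 with median-of-ratios scaling, 12 in male-called cells, 15 per cell, 9 thinned, 2 with cycling and other cells held at equal depth and 0 with sides held, at full or equal depth. In cycling cells -0.03 became -0.12 with median-of-ratios scaling, 0.072 at 5% mt-, 0.045 without top doublet scores, -0.24 without cells marked by melanocyte or immune genes, -0.11 per cell, 0.090 with 2 UMIs at 3000 and 0.23 with sides held (0.25 at equal depth). The 1 member lower became 3 with median-of-ratios scaling, 3 without marked cells, 2 in male-called cells, and 0 at 5% mt-, without top doublet scores, with 2 UMIs at 3000, with 10 UMIs, without cells with 5 marker UMIs at 3000 and with sides held, at full or equal depth. In other cells -1.01 became -1.27 thinned and -0.55 with 2 UMIs at 3000, where 20 rather than 31 were lower. In hedgehog-high cells -0.37 became -0.79 in male-called cells, and 12 lower became 7 with classes at 5000 UMIs, 20 at 3 UMIs and 31 in male-called cells. In hedgehog-low cells 4 lower became 9 with median-of-ratios scaling and 7 without top doublet scores. Shares of all genes are not given for these alternatives, so the counts are not read as particular to the members.

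The late minus early difference of -0.15 in cycling cells reversed to 0.029 with sides held and became -0.0018 with sides held at equal depth. The one of -0.30 in all cells became -0.043 with sides held, -0.12 with sides and -0.18 with cycling and other cells held at equal depth, and -0.21 without the 9 broad members. Cycling over other medians became 2.94 and 3.87 at equal depth. The cycling share of 23.5% in control cells became 11.1% with 5 UMIs at 3000, 26.0% at 2000 genes, 25.2% at 5% mt- and 22.4% without top doublet scores. The GOF share of 16.5% became 8.73% with 5 UMIs at 3000, 20.4% at full depth, 18.1% at 5% mt-, 15.2% without top doublet scores and 15.4% in male-called cells. The M-side shares became 13.8% and 7.45% without top doublet scores, and the GOF share 6.72% in male-called cells. The cause of these moves was not tested, except that holding the shares of the classes takes out the difference in shares by construction.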
